A study of Homo sapiens with 8 samples.

Results

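Zinc finger genes of chromosome 19 are described here in nascent transcription of IMR90 human lung fibroblasts. The members were defined by a rule on name and place, as every protein-coding gene on chromosome 19 whose symbol is ZNF followed by a number and at most a letter. The rule found 248 members among the 27945 genes counted. Each was read as counts over its whole gene body in 8 libraries of fastGRO-seq, a run-on assay in which nuclei extend RNA with a tagged nucleotide so that transcription under way is captured.

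Control IMR90 cells (2 libraries) were compared with cells made senescent by a fusion of the estrogen receptor with oncogenic H-RAS (ER:RAS), switched on with 4-hydroxytamoxifen. The general methods give 100 nM and a harvest on day 6, which the labels do not state for each library. Senescent cells received a lentivirus with a control hairpin (shControl), a hairpin to METTL3 (shMETTL3) or a hairpin to METTL14 (shMETTL14), with puromycin selection and 2 libraries in each group. The design text of the series names METTL4 where the library labels name METTL14, and the labels were followed. METTL3 and METTL14 form the core of the complex that writes N6-methyladenosine on RNA, and each was targeted with a single hairpin. The control cells are labelled with no hairpin, so senescence, lentiviral infection and selection cannot be told apart in that comparison, which is called senescence below for short. Library totals ran from 14897360 to 20306299 counts, of which ribosomal RNA took 86.2% to 92.5%, leaving between 1513930 and 2048475 counts for other genes. The spike-in of fly nuclei was not used here, so every fold change compares a gene with the rest of its libraries.

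Many human zinc finger genes encode DNA-binding repressors in which an array of C2H2 zinc fingers reads the DNA and a KRAB domain recruits TRIM28 with the histone methyltransferase SETDB1 and heterochromatin protein 1. Chromosome 19 holds the densest clusters of these genes, built by repeated local duplication, and many of the proteins silence transposable elements. The genes themselves carry repressive chromatin over their 3′ ends, and ZNF274 is the family member known to recruit SETDB1 there. Their transcripts are typically scarce and short-lived, so run-on counts give a view of their transcription that is separate from RNA stability.

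The members were weakly transcribed. Of the 248 members 198 had enough counts to be tested and 50 did not, and 2 of those, ZNF98 and ZNF728, had no count in any library, which allows up to 3 counts in each. The tested members had a median of 21.6 counts per library on average, against 48.3 over the 12844 genes tested, and 28 members reached a mean of 50. Per length, the highest mean levels among the members were those of ZNF432 at 0.624 RPKM (counts scaled to gene length and library size), ZNF841 at 0.532, ZNF460 at 0.474, ZNF587 at 0.418 and ZNF146 at 0.406, and the median member tested stood at 0.0630 RPKM. ZNF587 represses endogenous retroviruses, and ZNF146 consists almost wholly of zinc fingers. With neighbouring members that start less than 1 Mb apart grouped together, 237 of the 248 lay in 9 clusters of 5 or more. Paralogs in these clusters have long similar stretches, and how reads that match several places were treated is not given in the sources used here, so the split of reads among close paralogs is uncertain.

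All members together took 0.372% and 0.363% of the counts outside ribosomal RNA in the control libraries. In senescent cells the share was 0.354% and 0.357% for shControl, 0.380% and 0.379% for shMETTL3, and 0.454% and 0.437% for shMETTL14. The highest shares were thus those of the shMETTL14 libraries, whose Wilson 95% intervals (0.444% to 0.464% and 0.427% to 0.448%, counting error only) lay above those of the other 6 libraries. In CPM (counts scaled to library size) after TMM scaling, the tested members summed to 388.5 and 405.3 for shMETTL3. For shMETTL14 the sums were 405.9 and 397.3, so these groups overlapped. Other protein-coding genes of chromosome 19 also took their highest shares with shMETTL14, 2.88% and 2.66%, against 1.43% to 2.53% in the other libraries. ZNF genes elsewhere took theirs with shMETTL3, 0.84% and 0.902%. In bulk samples fewer cells and less RNA per cell cannot be told apart.

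The labels were checked on the targeted genes and on markers. METTL3 had 77 and 47 counts in shControl cells and 16 and 19 in shMETTL3 cells, and fell by 2.04 ± 0.31 on the log2 scale (SE, n = 2 in each group, edgeR adjusted p = 1.8e-05). Both shMETTL3 libraries were below both shControl libraries. METTL14 had 24 and 28 counts in shControl cells and 18 and 14 in shMETTL14 cells, a log2 difference of −0.86 ± 0.34 that did not pass the test (edgeR adjusted p = 0.076), although the groups did not overlap. Against shMETTL3, where METTL14 had 41 and 48 counts, it was lower in the shMETTL14 libraries by −1.41 ± 0.32 (edgeR adjusted p = 0.0010). METTL14 was also lower in shControl than in control cells, down from 60 and 55 counts in the control libraries (log2 −0.76 ± 0.28, edgeR adjusted p = 0.047). A hairpin acts on finished RNA, so nascent counts need not show the knockdown.

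All 10 fibroblast markers were detected, with FN1 having the most counts and VIM the highest level per length (22.6 RPKM), and their summed level was 1810 and 1690 CPM (counts scaled to library size) in control cells, 1170 and 1260 in shControl cells, 1600 and 1360 in shMETTL3 cells, and 775 and 918 in shMETTL14 cells. In senescence 8 of the 10 fell and VIM rose. Of the 5 epithelial markers EPCAM and CDH1 had between 0 and 2 counts in every library, and KRT18 was the most abundant of a list summing to 2.67 and 2.82 CPM in control cells, 3.03 and 1.61 for shControl, 1.32 and 1.22 for shMETTL3, and 4.29 and 3.41 for shMETTL14. The 3 endothelial markers summed to at most 0.494 CPM, with most counts in VWF, though not the highest level per length. Among 4 leukocyte markers CD68, also a lysosomal gene of fibroblasts, was the most abundant and rose from 17 and 16 counts to 60 and 45 (log2 2.05 ± 0.33, edgeR adjusted p = 2.6e-05), the list summed to between 0.840 and 4.16 CPM, and CD3E was at 0 in all libraries. Senescence genes moved between control and shControl cells. CDKN1A (log2 1.12 ± 0.15), CDKN2B (2.31 ± 0.22), CXCL8 (7.12 ± 0.21) and IL6 (4.36 ± 0.28) rose, LMNB1 (−2.28 ± 0.35) and MKI67 (−2.06 ± 0.24) fell, with edgeR adjusted p between 4.7e-20 and 1.3e-05, and CCNA2 did not pass the test.

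ZNF432 and ZNF841, neighbours on the minus strand of band 19q13.41, had the lowest adjusted p of the members in senescence and with shMETTL3, although some members with fewer counts had larger fold changes. ZNF432, a KRAB zinc finger protein linked to DNA repair, is counted over chr19:52534632-52552377 of hg19, and ZNF841 over chr19:52561353-52597524, with 8975 bases between them. ZNF432 had 36 and 46 counts in the control libraries, 139 and 110 in shControl cells, 304 and 411 in shMETTL3 cells and 241 and 272 in shMETTL14 cells. ZNF841 had 97 and 104, 233 and 196, 576 and 668, and 401 and 436 counts in the same order. For both genes every senescent library was above both control libraries, and every knockdown library was above both shControl libraries. In senescence ZNF432 rose by 1.99 ± 0.22 on the log2 scale (edgeR adjusted p = 5.3e-08) and ZNF841 by 1.48 ± 0.17 (8e-08). With shMETTL3 they rose further, by 1.30 ± 0.17 (2.1e-06) and 1.31 ± 0.14 (1.6e-07), and with shMETTL14 by 0.88 ± 0.17 (0.00044) and 0.80 ± 0.15 (0.0002), all by edgeR's quasi-likelihood test. Both genes stayed called in these 3 comparisons under each of the 19 alternatives tried, and those comparisons share the shControl libraries.

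The zinc finger genes around the pair did not pass the test in these comparisons, and ZNF613 and ZNF836 had too few counts for it. ZNF614, the nearest on one side, had 27 and 19 counts in the control libraries, 24 and 28 in shControl cells, 40 and 62 in shMETTL3 cells and 43 and 40 in shMETTL14 cells, and its log2 differences were 0.56 ± 0.34 in senescence, 0.75 ± 0.30 with shMETTL3 and 0.51 ± 0.31 with shMETTL14 (edgeR adjusted p = 0.24, 0.073 and 0.26). ZNF616 on the other side stood at 18 and 18, 25 and 21, 22 and 30, and 24 and 14 counts, with overlapping groups among the senescent libraries. ZNF615 and ZNF350 did not pass the test either. PPP2R1A, the next gene beyond ZNF836 and named after its values were seen, had 189 and 207 counts in shControl cells and 353 and 314 in shMETTL14 cells and rose with shMETTL14 (0.59 ± 0.14, edgeR adjusted p = 0.0034), without overlap of the groups. Its call ended without shControl replicate 1 (0.57) or shMETTL14 replicate 1 (0.52). GENCODE places a transcript of ZNF432 without a defined coding sequence at chr19:52552063-52598991, across the whole of ZNF841, and a coding ZNF432 transcript reaches into it as well, so reads over ZNF841 cannot be assigned to either gene alone.

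The 250 bases upstream of the counted span are shown for this pair because the genes moved together. They lie on the minus strand of hg19 at chr19:52552378-52552627 for ZNF432, in an annotated exon of non-coding transcripts, and at chr19:52597525-52597774 for ZNF841, where the longest GENCODE transcripts start further upstream, at 52599018. Capitals mark TATAAA on either strand, present in both windows at different distances, which 16 of the 248 member windows (6.45%), 10.5% of 27827 windows of all genes and 6.42% of those of the genes tested hold.
ZNF432: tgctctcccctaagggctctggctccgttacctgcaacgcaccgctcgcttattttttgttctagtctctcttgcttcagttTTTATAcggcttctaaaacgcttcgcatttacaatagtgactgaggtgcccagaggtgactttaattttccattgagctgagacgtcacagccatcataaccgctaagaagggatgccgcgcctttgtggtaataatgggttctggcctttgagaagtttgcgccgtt
ZNF841: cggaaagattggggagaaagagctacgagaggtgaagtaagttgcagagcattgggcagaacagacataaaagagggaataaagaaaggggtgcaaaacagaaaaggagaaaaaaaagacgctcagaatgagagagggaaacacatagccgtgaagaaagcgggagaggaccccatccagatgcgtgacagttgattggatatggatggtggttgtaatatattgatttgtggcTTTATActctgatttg
Neither window holds GGGCGG, the letters bound by SP1, on either strand, although 60.5% of the member windows do.

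**Figure D1:**
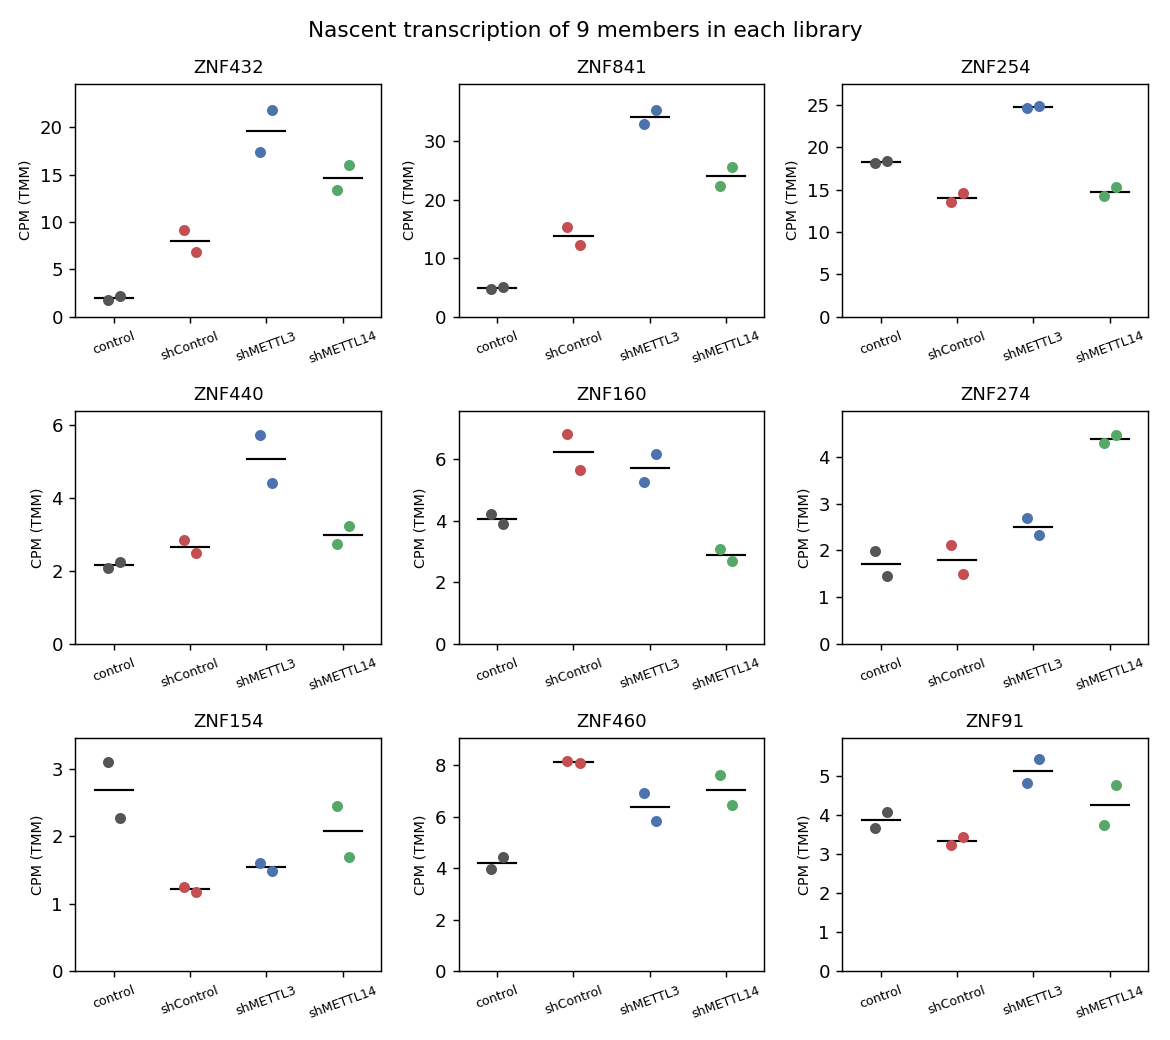
Nascent transcription of 9 members in CPM after TMM scaling, with a point for each library and a bar at the mean of the 2 libraries of each group. ZNF432 and ZNF841 step up from control to shControl and again to both knockdowns, while ZNF254 and ZNF440 are highest with shMETTL3 and ZNF274 with shMETTL14.

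Few of the members changed in senescence. Between control and senescent shControl cells 8 of the 198 tested members rose and 7 fell by edgeR's quasi-likelihood test (4.04% and 3.54%), where 13.3% of all genes tested rose and 13.3% fell. The median log2 difference of the members was −0.01, against −0.03 over all genes, and 96 of the 198 had a positive value. Among genes averaging 50 counts or more, 6 of 28 members rose and 2 fell in a fit of those genes alone (21.4% and 7.14%), against 18.9% and 18.8% of all such genes, so that the higher share was close to the background and the lower share was under it. Scaled by library size alone, which moves the median of all genes to −0.53, 3 members rose and 46 fell (1.52% and 23.2%, against 5.85% and 39.0% of all genes). DESeq2 called 5 higher and none lower (2.53% and 0%, against 9.58% and 7.07%). In the fits without a library given next, the shares of all genes called moved in the same direction as the members' counts. The number of members that fell also rests on single libraries: it was 1 without control replicate 1, 2 without control replicate 2, 0 without shControl replicate 1, 1 without shControl replicate 2, 11 without either shMETTL3 library, and 1 and 2 without shMETTL14 replicate 1 and 2. The number that rose was 5 without control replicate 2 and 13 without either shMETTL3 library.

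Beside the neighbouring pair, ZNF121, ZNF460, ZNF317 and ZNF160 rose in senescence. ZNF460 had 80 and 91 counts in the control libraries and 124 and 130 in shControl cells, and ZNF121 had 35 and 38 against 53 and 60. For both genes each senescent library was above each control library. ZNF460 rose by 0.95 ± 0.18 on the log2 scale (edgeR adjusted p = 0.00023) and ZNF121 by 1.01 ± 0.26 (0.0046), and only scaling by library size ended these calls among the alternatives (log2 0.46 and 0.52, adjusted p = 0.088 and 0.13). ZNF160 rose from 85 and 80 counts to 103 and 91 (0.62 ± 0.20, edgeR adjusted p = 0.019), a call that ended without control replicate 1 (0.68, adjusted p = 0.067), control replicate 2 (0.57, adjusted p = 0.12) or shControl replicate 1 (0.49, adjusted p = 0.22), by DESeq2 (adjusted p = 0.12) and by library size alone (0.12). ZNF317 rose from 37 and 35 counts to 46 and 48 (0.77 ± 0.25, edgeR adjusted p = 0.025), and its call ended without any of the 4 libraries compared (control replicate 1 0.82, replicate 2 0.72, shControl replicate 1 0.76, replicate 2 0.79), by DESeq2 (adjusted p = 0.12) and by library size alone (0.27) or after ribosomal RNA was set aside (0.66). Both genes are thus weaker cases than ZNF460 and ZNF121. Of the members that rose with fewer counts, ZNF792 (1.91) and ZNF610 (1.65) are named after their values were seen.

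Members of the 19p12 cluster were among those that fell. ZNF254 went from 366 and 378 counts to 205 and 235, and ZNF43 from 67 and 74 to 28 and 34. Each senescent library was below each control library for both genes. ZNF254 fell by 0.37 ± 0.14 and ZNF43 by 0.80 ± 0.30 on the log2 scale (edgeR adjusted p = 0.043 and 0.049). Each call ended by DESeq2 (adjusted p = 0.16 and 0.19) and when any of the 4 libraries compared was left out, with values from −0.42 to −0.31 for ZNF254 and from −0.89 to −0.70 for ZNF43 over the libraries left out in turn. ZNF254 also lost its call without shMETTL14 replicate 1 (−0.34), with no filter on low counts (−0.35), with an offset for gene length (−0.30) and in a fit without ribosomal RNA (−0.35). ZNF43 lost its call without either shMETTL14 library (−0.76 and −0.79) and in a fit without ribosomal RNA (−0.77). ZNF154, a gene whose promoter is methylated in many tumours, fell from 63 and 47 counts to 19 and 19 (−1.14 ± 0.32, edgeR adjusted p = 0.0076), with both senescent libraries below both control libraries. Its call ended by DESeq2 (adjusted p = 0.055) and without control replicate 1 (−0.90, adjusted p = 0.12), shControl replicate 1 (−1.18, adjusted p = 0.060) or shControl replicate 2 (−1.09, adjusted p = 0.072). ZNF507, outside the clusters, fell from 82 and 91 counts to 48 and 38 (−0.62 ± 0.23, edgeR adjusted p = 0.044), with values from −0.83 to −0.41 when libraries were left out, kept its call only without either shMETTL3 library and lost it by DESeq2 (adjusted p = 0.22), with no filter on low counts (−0.59) and in a fit without ribosomal RNA (−0.59). ZNF428, ZNF675 and ZNF480 fell too, with fewer counts, and are named after their values were seen.

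The cluster values show the same region more evenly than the calls do. Of the 26 members tested in the 19p12 cluster 22 had a negative log2 difference in senescence, with a median of −0.39, while the medians of the 6 other clusters with at least 13 tested members lay between −0.12 and 0.18. Summed over the tested members of that cluster, transcription was 64.3 and 64.1 CPM in control cells and 46.5 and 52.1 in shControl cells, so that both senescent libraries were lower. Relative to the median of all genes the cluster's median stayed negative in every alternative, between −0.50 and −0.31.

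With shMETTL3 few members passed the test, and fewer of them fell than rose. With shMETTL3 against shControl 14 of the 198 rose and 3 fell by edgeR's quasi-likelihood test (7.07% and 1.52%), where 12.3% and 11.2% of all genes tested did. The members' median was −0.05 and that of all genes −0.03, and 91 of the 198 members had a positive value, so the members as a whole did not lean upward. Of the 10 fibroblast markers 2 rose and 2 fell in this comparison. In the fit of genes averaging 50 counts or more 6 of 28 members rose and none fell (21.4% and 0%, against 17.6% and 17.7% of all such genes). None fell by DESeq2 either, which called 5 higher (2.53% and 0% lower, against 7.56% and 5.66% of all genes). At an unadjusted p under 0.05 the whole list had 27 members past the threshold in either direction. The share of all genes past that threshold is not given here, so this count is not read further. Scaled by library size alone, which moves the median of all genes to 0.58, 58 members rose and none fell (29.3% and 0%, against 41.2% and 2.75% of all genes). Without a library, as given next, the shares of all genes called moved in the same direction as the members' counts. The number that rose was 6 without shControl replicate 1, 5 without shControl replicate 2 and 7 without shMETTL3 replicate 2, and the number that fell was 7 without shMETTL3 replicate 1, 2 without shMETTL3 replicate 2 and 0 without any of the other 6 libraries.

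Apart from ZNF432 and ZNF841, the members that rose with shMETTL3 were led by ZNF254, ZNF440 and ZNF667. ZNF254 had 205 and 235 counts in shControl cells and 429 and 470 in shMETTL3 cells, against 254 and 260 in shMETTL14 cells. The shMETTL3 libraries alone were high among the senescent ones, above the 366 and 378 counts of control cells as well. It rose by 0.81 ± 0.14 on the log2 scale (edgeR adjusted p = 6.5e-05) and stayed called under all 19 alternatives. ZNF440 had 43 and 40 counts in shControl cells and 100 and 83 in shMETTL3 cells, and ZNF667 had 19 and 28 against 47 and 71. Neither gene's groups overlapped. ZNF440 rose by 0.92 ± 0.23 (edgeR adjusted p = 0.0046), a call lost without shControl replicate 2 (0.82, adjusted p = 0.085), and ZNF667 by 1.10 ± 0.31 (edgeR adjusted p = 0.011), lost without shControl replicate 1 (0.88, adjusted p = 0.14) or shMETTL3 replicate 2 (0.82, adjusted p = 0.11) and by DESeq2 (adjusted p = 0.061).

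ZNF91 and ZNF93, which repress SVA and LINE-1 retrotransposons, lie in the 19p12 cluster as well. ZNF91 had 74 and 84 counts in the control libraries, 49 and 55 in shControl cells, 84 and 102 in shMETTL3 cells and 67 and 81 in shMETTL14 cells. Both knockdowns were above shControl in each library. It rose with shMETTL3 by 0.62 ± 0.21 (edgeR adjusted p = 0.036), and this call ended without control replicate 1 (0.61), control replicate 2 (0.61), shControl replicate 1 (0.57), shControl replicate 2 (0.65) or shMETTL3 replicate 2 (0.51), by DESeq2 (adjusted p = 0.16), with no filter on low counts (0.61), in a fit of the 2 groups alone (0.60), with an offset for GC content (0.46) and by library size after ribosomal RNA was set aside (0.51). ZNF93 had 20 and 20, 5 and 13, 20 and 15, and 17 and 5 counts in the same order of groups and did not pass the test in any of the 4 comparisons. ZNF714 shows how much a single library can carry: its counts were 21 and 30 in shControl cells and 30 and 92 in shMETTL3 cells. The groups touch at 30 counts, and its rise of 1.03 ± 0.36 (edgeR adjusted p = 0.039) shrank to 0.06 (adjusted p = 0.95) without shMETTL3 replicate 2, and the call also ended without shControl replicate 1 (0.82) or shControl replicate 2 (1.24), by DESeq2 (adjusted p = 0.13), in a fit of the 2 groups alone (1.00), with an offset for GC content (0.85) and by library size after ribosomal RNA was set aside (0.91).

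The upstream windows of ZNF91, ZNF93 and ZNF714 are shown because they share a stretch of sequence within the cluster. The longest run common to the windows of ZNF91 and ZNF93 is 24 bases, in capitals, and it was searched for after the sequences had been seen. Of the 27827 windows of all genes 8 hold it on either strand, and all 8 belong to the 38 members of the 19p12 cluster: ZNF208, ZNF675, ZNF681, ZNF714, ZNF85, ZNF90, ZNF91 and ZNF93. The windows are from hg19, at chr19:23578363-23578612 on the minus strand for ZNF91, and on the plus strand at chr19:20011472-20011721 for ZNF93 and chr19:21264703-21264952 for ZNF714.
ZNF91: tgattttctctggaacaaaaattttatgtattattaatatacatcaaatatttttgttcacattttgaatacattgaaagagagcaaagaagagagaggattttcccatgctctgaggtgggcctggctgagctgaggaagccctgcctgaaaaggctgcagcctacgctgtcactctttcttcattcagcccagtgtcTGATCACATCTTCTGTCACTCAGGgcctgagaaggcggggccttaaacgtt
ZNF93: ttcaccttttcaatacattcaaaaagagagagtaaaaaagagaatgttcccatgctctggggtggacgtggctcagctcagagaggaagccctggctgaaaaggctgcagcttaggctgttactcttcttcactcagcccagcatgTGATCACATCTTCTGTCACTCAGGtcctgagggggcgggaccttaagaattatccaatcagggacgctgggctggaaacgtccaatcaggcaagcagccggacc
ZNF714: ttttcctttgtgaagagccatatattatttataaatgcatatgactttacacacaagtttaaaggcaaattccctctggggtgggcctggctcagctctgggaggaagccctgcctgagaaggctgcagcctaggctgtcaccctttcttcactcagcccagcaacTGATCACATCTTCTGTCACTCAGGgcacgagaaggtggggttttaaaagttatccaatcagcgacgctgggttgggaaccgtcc

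Members that fell with shMETTL3 were few and close to the threshold. ZNF493, also in the 19p12 cluster, had 34 and 38 counts in shControl cells and 23 and 24 in shMETTL3 cells (−0.83 ± 0.30, edgeR adjusted p = 0.048), and lost its call whichever of the 8 libraries was left out (−0.87 to −0.80), by DESeq2 (−0.81), by library size alone (−0.22), with no filter on low counts (−0.84), in a fit of the 2 groups alone (−0.85), with an offset for gene length (−0.73) and in a fit without ribosomal RNA (−0.81). ZNF358 (−2.01) and ZNF581 (−1.91), with fewer counts, are named after their values were seen.

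By cluster, the rises called with shMETTL3 in the main fit sat mostly in 2 clusters of the short arm. The 19p13.2 cluster from ZNF653 to ZNF791 had 5 of 20 members higher and none lower (25% and 0%) with a median of 0.32, and the 19p12 cluster had 5 of 26 higher and 1 lower (19.2% and 3.85%) with a median of 0.25, where 12.3% and 11.2% of all genes were called. These are the clusters of ZNF440 and ZNF254. DESeq2 called only 1 member higher in each, of 5 in all. A fit of the 2 groups alone called 2 higher in each, of 8 in all. Summed CPM in the 19p13.2 cluster was 33.1 and 29.2 in shControl cells and 40.5 and 43.7 in shMETTL3 cells, and in the 19p12 cluster 46.5 and 52.1 against 63.6 and 71.7. ZNF254 added more to the 19p12 difference than its other 25 tested members together, and that sum without it was 33.0 and 37.5 in shControl cells and 39.1 and 46.8 in shMETTL3 cells. With or without ZNF254, the sums were higher in each shMETTL3 library than in each shControl library. The other protein-coding genes tested in the spans of these 2 clusters had negative values, with a median of −0.51 for 3 genes at 19p13.2 and −0.21 for 1 gene at 19p12. The other 19p13.2 cluster, from ZNF557 to ZNF846, had none of 13 members higher, 1 lower and a median of −0.08. In the cluster at 19q13.42 to 19q13.43 1 of 50 members rose, 1 fell and the median was −0.27. The 14 other protein-coding genes tested in its span had a median of −0.42, with 3 positive. In the span of the other 19p13.2 cluster 25 such genes had a median of −0.23. Relative to the median of all genes, the medians of the clusters of ZNF440 and ZNF254 stayed positive in every alternative (0.28 to 0.45 and 0.08 to 0.57). That of the other 19p13.2 cluster ranged from −0.34 to 0.16, and that of the 19q13.43 cluster from −0.37 to 0.07. The shMETTL3 difference had a Spearman correlation with gene length of 0.29 over the members and 0.30 over all genes tested. With GC content it was −0.23 and −0.30. Tested members had median lengths of 34855 bases at 19p12 and 20966.5 in the cluster of ZNF440, and median GC contents of 39.7% and 44.2%. The part of length and GC content in these cluster values was not tested.

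With shMETTL14 too, the shares of members called were under those of all genes. With shMETTL14 against shControl 11 of the 198 rose and 3 fell by edgeR's quasi-likelihood test (5.56% and 1.52%), where 9.15% and 12% of all genes tested did. The members' median was 0.20, against 0.00 over all genes, and 128 of the 198 had a positive value. Of the 10 fibroblast markers none rose and 8 fell in this comparison, and their part in the members' values was not tested. In the fit of genes averaging 50 counts or more 6 of 28 members rose and 2 fell (21.4% and 7.14%), against 14.1% and 18.6%. DESeq2 called 3 higher and 1 lower (1.52% and 0.505%, against 4.42% and 7.4% of all genes). Other protein-coding genes of chromosome 19 had a median of 0.17 and zinc finger genes elsewhere one of 0.11, and no test of the difference between sets was run. Scaling by library size alone moves the median of all genes to 0.35 and gave 40 higher and 1 lower (20.2% and 0.505%, against 24.6% and 5.52% of all genes). After ribosomal RNA was set aside library size gave 18 higher and 2 lower (9.23% and 1.03%, against 12.8% and 9.75%). Fits without a library, given next, moved the shares of all genes called in the same direction as the members' counts. The number that rose was 7 without control replicate 1, 4 without either shControl library, 19 without either shMETTL3 library and 3 without either shMETTL14 library. The number that fell was 1 without either shControl library or shMETTL14 replicate 1, and 5 without either shMETTL3 library.

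ZNF274, the recruiter of SETDB1 to zinc finger genes, rose with shMETTL14. It had 40 and 30 counts in the control libraries, 32 and 24 in shControl cells, 47 and 44 in shMETTL3 cells and 77 and 76 in shMETTL14 cells. The shMETTL14 libraries stood above the other 6. The rise over shControl was 1.28 ± 0.27 on the log2 scale (edgeR adjusted p = 0.00085) and stayed called under all 19 alternatives, and the difference with shMETTL3 was 0.48 ± 0.29 (edgeR adjusted p = 0.24). Between the knockdowns ZNF274 was higher with shMETTL14 by 0.80 ± 0.25 (edgeR adjusted p = 0.013), a call lost without shMETTL3 replicate 2 (0.72, adjusted p = 0.051), shMETTL14 replicate 1 (0.81, adjusted p = 0.075) or shMETTL14 replicate 2 (0.78, adjusted p = 0.069), by DESeq2 (adjusted p = 0.096) and by library size alone (0.54). Its upstream window, on the plus strand of hg19 at chr19:58694106-58694355, is shown with CCGGAAGT in capitals on either strand, the letters recognised by ETS factors. These letters occur in 19 of the 248 member windows (7.66%), in 2.77% of the 27827 windows of all genes and in 4.75% of those of the genes tested. Of the other members that rose with shMETTL14 and are described here, ZNF586 holds them and ZNF814, ZNF317, ZNF432 and ZNF841 do not.
ZNF274: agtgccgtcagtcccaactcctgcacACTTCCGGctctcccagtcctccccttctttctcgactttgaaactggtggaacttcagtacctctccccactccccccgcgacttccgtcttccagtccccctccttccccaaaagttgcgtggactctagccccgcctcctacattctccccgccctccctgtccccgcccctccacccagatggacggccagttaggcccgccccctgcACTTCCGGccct
Of the other letters searched on both strands, TGACTCA was in 1.21% of the member windows, 3.56% of all and 2.62% of those of genes tested, and TGACGTCA in 2.42%, 1.62% and 2.34%. GGGCGG was in 60.5%, 42.9% and 59.5%, so that its share in the members was that of tested genes, and the NRF1 motif, which reads the same on both strands, in 2.42%, 0.866% and 1.39%.

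ZNF586 and ZNF814 rose with shMETTL14 in the same cluster at 19q13.43. ZNF586 had 25 and 29 counts in shControl cells and 58 and 55 in shMETTL14 cells (0.90 ± 0.30, edgeR adjusted p = 0.030), and ZNF814 had 27 and 40 against 59 and 64 (0.72 ± 0.26, edgeR adjusted p = 0.049). Neither gene's groups overlapped. Both calls ended by DESeq2 (adjusted p = 0.14 and 0.20) and without any of the 4 libraries compared, with values from 0.84 to 0.96 for ZNF586 and 0.50 to 0.98 for ZNF814, and ZNF814 also lost its call without either control library (0.71 in both cases), with no filter on low counts (0.71) and with an offset for gene length (0.69) or GC content (0.65). ZNF317, which had risen in senescence, had 91 and 71 counts in shMETTL14 cells (0.62 ± 0.23, edgeR adjusted p = 0.050) and lost its call without either control library or any of the 4 libraries compared (0.45 to 0.75), by DESeq2 (adjusted p = 0.23) and with no filter on low counts (0.61).

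ZNF160 fell with shMETTL14. It had 103 and 91 counts in shControl cells, 92 and 116 in shMETTL3 cells and 55 and 46 in shMETTL14 cells, the lowest of all 8 libraries. Its decrease of −1.10 ± 0.21 against shControl (edgeR adjusted p = 0.00032) and of −0.98 ± 0.21 against shMETTL3 (edgeR adjusted p = 0.00057) stayed called under all 19 alternatives. ZNF69 and ZNF439, in the 19p13.2 cluster, fell as well. ZNF69 had 62 and 60 counts in shControl cells and 38 and 46 in shMETTL14 cells (−0.70 ± 0.24, edgeR adjusted p = 0.035), a call lost without shControl replicate 1 (−0.63), shControl replicate 2 (−0.77) or shMETTL14 replicate 1 (−0.55), by DESeq2 (adjusted p = 0.16) and by library size alone (−0.35) or after ribosomal RNA was set aside (−0.60). ZNF439 had 31 and 28 against 10 and 19 (−1.18 ± 0.37, edgeR adjusted p = 0.024), lost without shControl replicate 1 (−1.06), shControl replicate 2 (−1.30) or shMETTL14 replicate 1 (−0.78), by DESeq2 (adjusted p = 0.099) and by library size alone (−0.83). Neither gene's groups overlapped.

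Among clusters with at least 13 tested members, the upward shift with shMETTL14 was largest in 2 clusters of the long arm. In the 19q13.12 cluster 23 of 25 members had a positive log2 difference, with a median of 0.42, and in the 19q13.43 cluster 37 of 50, with a median of 0.36. Few of these passed the test alone, 2 and 3 (8% and 6%, under the 9.15% of all genes). Other protein-coding genes within the span of the 19q13.43 cluster moved alike, with 11 of 14 positive and a median of 0.39, so the shift there was not confined to zinc finger genes, while the 4 tested in the span of the 19q13.12 cluster had a median of −0.19. The 19q13.41 cluster had 23 of 34 members positive, 4 called higher, 1 lower and a median of 0.28. Summed CPM in the 19q13.12 cluster was 39.9 and 39.9 in control cells, 37.6 and 39.5 in shControl cells, 37.7 and 39.0 in shMETTL3 cells and 52.3 and 50.4 in shMETTL14 cells, so the shMETTL14 libraries were the high ones. In the 19q13.43 cluster the sums were 78.4 and 73.1, 77.3 and 83.5, 81.1 and 70.5, and 104 and 94.2. Again both shMETTL14 libraries stood above the other 6. Relative to the median of all genes, the medians of both clusters stayed positive in every alternative (0.28 to 0.53 and 0.22 to 0.52). On the short arm the 19p13.2 cluster of ZNF440 (median −0.16) and the 19p12 cluster (median −0.03) had no such shift, but the 19p13.2 cluster from ZNF557 to ZNF846 had a smaller one, with 9 of 13 members positive, 2 called higher and a median of 0.19, close to the 0.14 of 25 other protein-coding genes in its span. Its summed CPM was 24.1 and 24.5 in control cells, 29.1 and 27.3 for shControl, 26.6 and 28.4 for shMETTL3 and 33.6 and 32.2 for shMETTL14, highest in the shMETTL14 libraries.

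**Figure D2:**
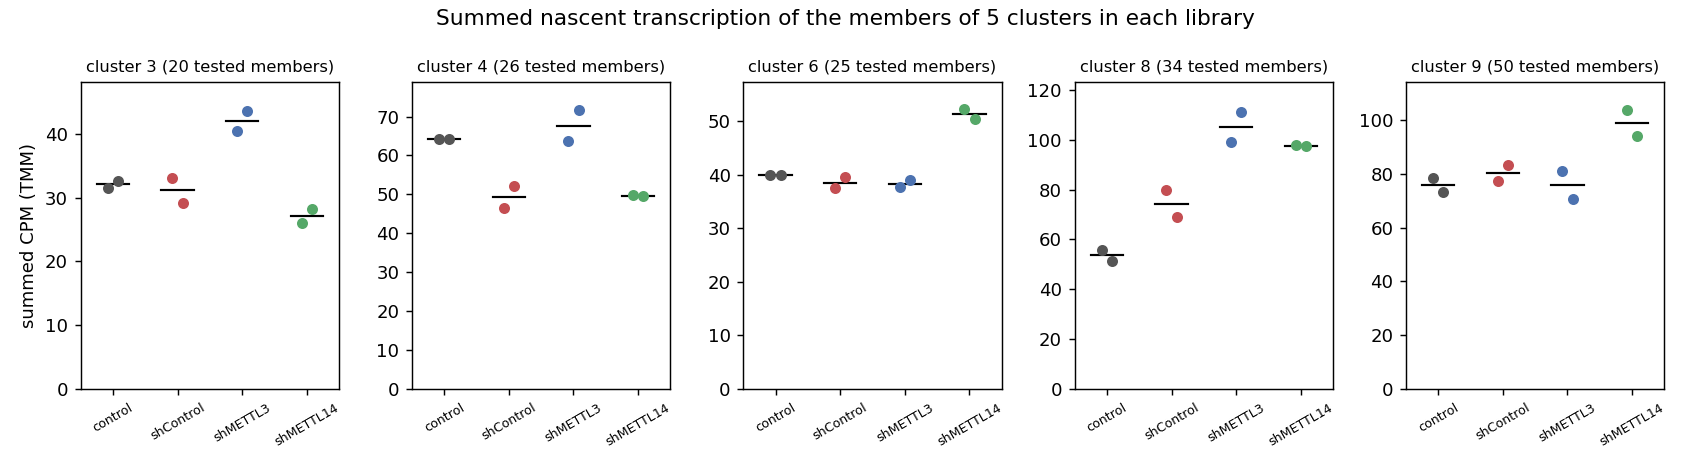
Summed CPM after TMM scaling of the tested members of 5 clusters, with a point for each library and a bar at the mean of the 2 libraries of each group. Clusters 3 (19p13.2) and 4 (19p12) are higher with shMETTL3 than with shMETTL14, while clusters 6 (19q13.12) and 9 (19q13.43) are highest with shMETTL14.

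The comparison of the knockdowns with each other called more members than those above, and its direction varied among clusters. With shMETTL14 against shMETTL3, a comparison without the shControl libraries, 26 of the 198 members were higher and 18 lower by edgeR's quasi-likelihood test (13.1% and 9.09%), where 16.5% and 18.7% of all genes tested were. The members' median was 0.15 and that of all genes 0.01, and 118 of the 198 had a positive value. Of the 26 members higher with shMETTL14, 23 lay on the long arm, and of the 18 lower, 12 lay on the short arm. The 62 tested members of the short arm had a median of −0.32 and 21 positive values, and the 136 of the long arm a median of 0.38 and 97 positive values. This split by arm was chosen after the values had been seen, and it does not hold for every cluster of the short arm. Leaving out a library moved the shares of all genes called in the same direction as the members' counts given next. The counts depend on single libraries: 3 were higher and 7 lower without shMETTL14 replicate 1, 16 and 12 without shMETTL14 replicate 2, 15 and 10 without shMETTL3 replicate 2, and 40 and 25 without shMETTL3 replicate 1. They depend on scaling as well, with 12 higher and 32 lower by library size alone (6.06% and 16.2%, against 9.16% and 27.1% of all genes, whose median was −0.25) and 49 and 9 by library size after ribosomal RNA was set aside (25.1% and 4.62%, against 25.1% and 12.9%, median of all genes 0.22). DESeq2 gave 6 and 10 (3.03% and 5.05%, against 9.44% and 13.3%), and an offset for gene length 15 and 26 (7.58% and 13.1%, against 14.9% and 16.6%). Among genes averaging 50 counts or more 4 of 28 members were higher and 5 lower (14.3% and 17.9%, against 23.2% and 26.8% of such genes).

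**Figure D3:**
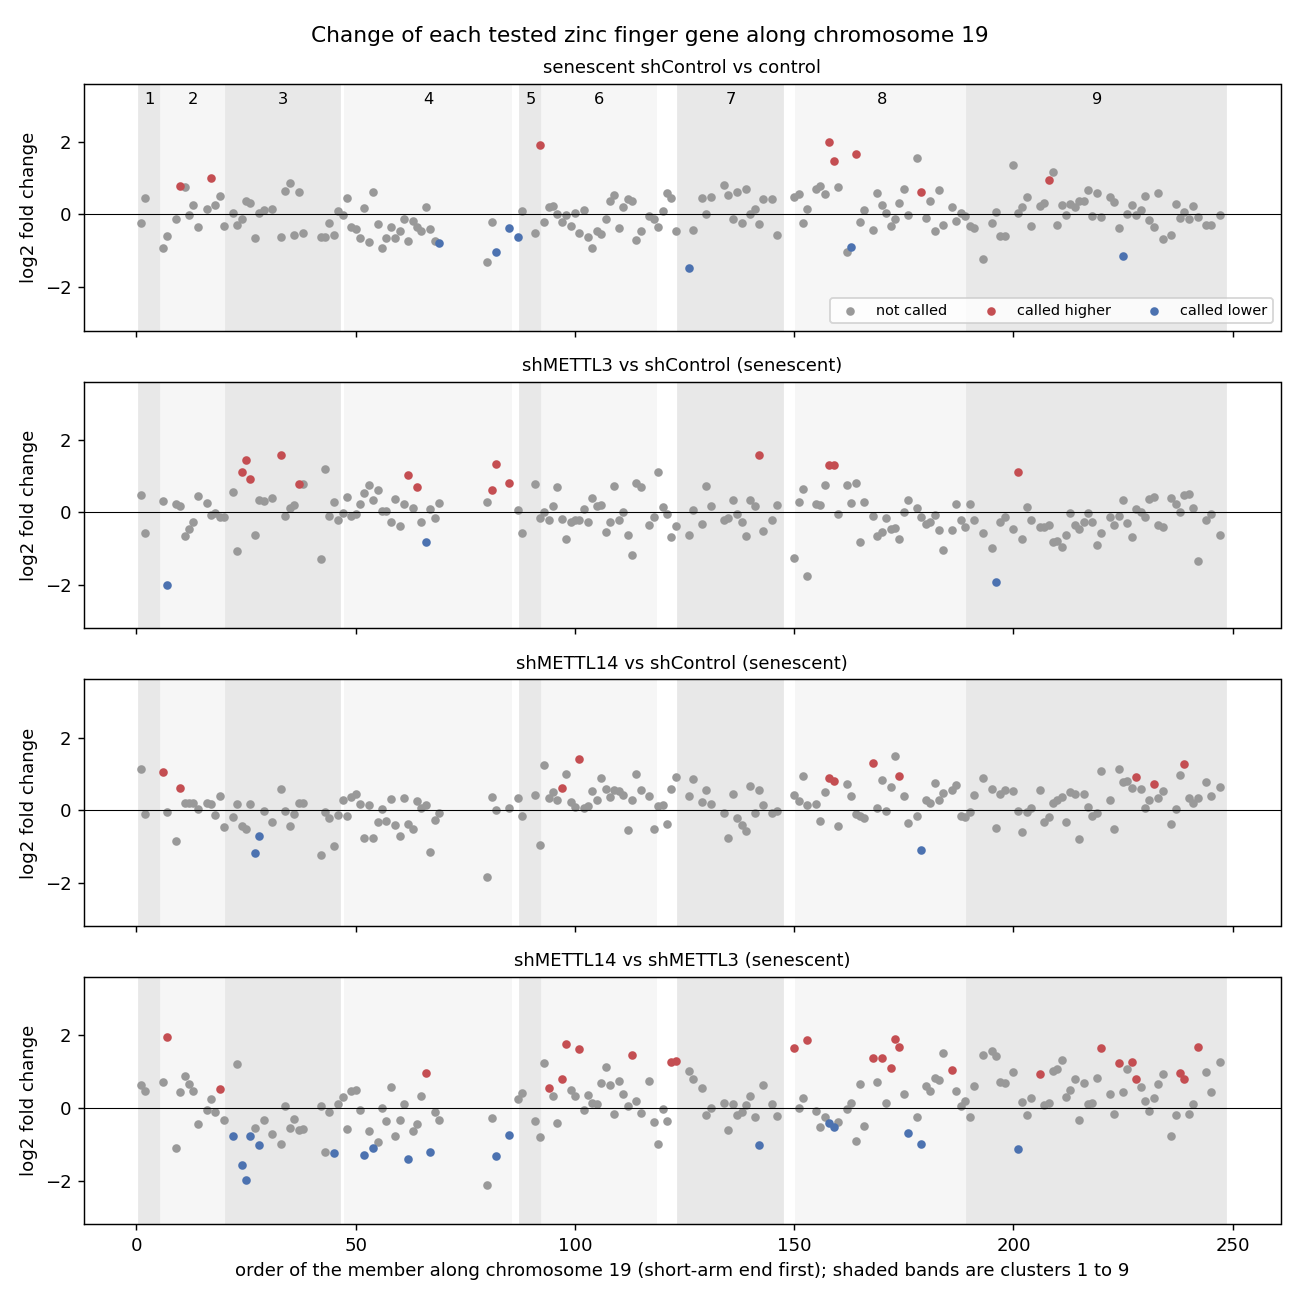
Log2 fold change of each of the 198 tested members in 4 comparisons, in their order along chromosome 19 from the end of the short arm, with shaded bands for clusters 1 to 9 and members called by edgeR in red (higher) or blue (lower). In the comparison of the knockdowns clusters 3 and 4 lie mostly below 0 and clusters 2, 6 and 9 mostly above.

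By cluster, 6 of 20 members of the 19p13.2 cluster of ZNF440 were lower with shMETTL14 than with shMETTL3 and none higher (30% and 0%), with a median of −0.58. In the 19p12 cluster 6 of 26 were lower and 1 higher (23.1% and 3.85%), with a median of −0.39. The other 19p13.2 cluster ran the opposite way, with 2 of 13 higher and none lower (15.4% and 0%) and a median of 0.44. On the long arm 5 of 25 members of the 19q13.12 cluster were higher and none lower (20% and 0%), with a median of 0.40, and in the 19q13.43 cluster 8 of 50 were higher and 1 lower (16% and 2%), with a median of 0.64. Beside the 16.5% and 18.7% of all genes, and with clusters this small, the counts of calls say little, and the clusters differ in their medians. The 19q13.41 cluster had 7 of 34 higher and 4 lower (20.6% and 11.8%). Relative to the median of all genes, the medians of the first 5 of these clusters kept their sign in every alternative (−0.81 to −0.52, −0.53 to −0.09, 0.25 to 0.54, 0.38 to 0.64 and 0.25 to 0.73), and that of the 19q13.41 cluster ranged from −0.41 to 0.44. Other protein-coding genes in the spans again moved alike in the other 19p13.2 cluster (median 0.43, 20 of 25 positive) and the 19q13.43 cluster (median 0.76, 13 of 14 positive), but not in the cluster of ZNF440 (median 1.02, 3 of 3 positive) or the 19p12 cluster (1 gene, 0.39), where the members had negative medians. In the 19q13.12 span 2 of 4 were positive (median −0.06), and in the 19q13.41 span 3 of 4 (median 0.27). Markers of other cells moved in this comparison too. Both epithelial markers tested were higher with shMETTL14, KRT8 from 9 and 10 counts to 25 and 23 (1.38 ± 0.43, edgeR adjusted p = 0.014) and KRT18 from 12 and 13 to 43 and 32 (1.63 ± 0.38, edgeR adjusted p = 0.0014), while of the 10 fibroblast markers 1 was higher and 6 lower. The KRT8 span, which ends at 53343650 on chromosome 12, overlaps the KRT18 span, which starts at 53342655. With strands not separated in effect the 2 genes share reads there. The KRT8 call ended by DESeq2 (1.37), without shMETTL14 replicate 1 (1.34) or replicate 2 (1.41) and with an offset for GC content (1.10). The part of these markers in the members' values was not tested.

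Of the 44 members called between the knockdowns, 15 named for the size of a change, their level or a known role were followed through the alternatives. Among these ZNF69, ZNF254 and ZNF160, all lower with shMETTL14, stayed called under each, and the other members called were not followed. ZNF69 had 91 and 88 counts in shMETTL3 cells and 38 and 46 in shMETTL14 cells (−1.03 ± 0.22, edgeR adjusted p = 0.00071), and ZNF254, with the counts given above, differed by −0.75 ± 0.13 (edgeR adjusted p = 8.3e-05). The other 12 calls followed each ended under some alternative. ZNF714 differed by −1.40 ± 0.37 (edgeR adjusted p = 0.0040), which shrank to −0.43 without shMETTL3 replicate 2, ZNF667 by −1.12 ± 0.31 (edgeR adjusted p = 0.0056), lost at −0.83 without the same library, and ZNF440 by −0.76 ± 0.22 (edgeR adjusted p = 0.0096), lost without shMETTL3 replicate 1 (−0.55) or shMETTL14 replicate 1 (−0.66), by DESeq2 (adjusted p = 0.065) and by library size after ribosomal RNA was set aside (−0.56). On the other side ZNF611 had 24 and 23 counts in shMETTL3 cells and 59 and 39 in shMETTL14 cells (1.11 ± 0.30, edgeR adjusted p = 0.0050), lost at 0.80 without shMETTL14 replicate 1. ZNF765 had 22 and 22 against 42 and 45 (1.04 ± 0.32, edgeR adjusted p = 0.012), lost without shMETTL14 replicate 1 (1.10) or replicate 2 (0.95), by DESeq2 (adjusted p = 0.079) and by library size alone (0.77), but its span lies wholly inside the readthrough gene ZNF765-ZNF761, so the 2 share reads. None of these members had overlapping groups.

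ZNF146 and ZNF473 also stood higher with shMETTL14. ZNF146 had 166 and 141 counts in shMETTL3 cells and 233 and 201 in shMETTL14 cells (0.55 ± 0.16, edgeR adjusted p = 0.0074), a call lost without shMETTL3 replicate 2 (0.40) or shMETTL14 replicate 1 (0.46), by DESeq2 (adjusted p = 0.058) and by library size alone (0.30). ZNF473, which takes part in 3′ end formation of histone transcripts, had 8 and 6 against 21 and 22 (1.66 ± 0.50, edgeR adjusted p = 0.010), lost without shMETTL3 replicate 2 (1.43), shMETTL14 replicate 1 (1.71) or shMETTL14 replicate 2 (1.59) and by DESeq2 (adjusted p = 0.059). ZNF493 had 23 and 24 against 44 and 44 (0.96 ± 0.29, edgeR adjusted p = 0.013), lost without shMETTL14 replicate 1 (0.98) or replicate 2 (0.93), by DESeq2 (adjusted p = 0.082) and by library size alone (0.69), and ZNF586 had 42 and 25 against 58 and 55 (0.80 ± 0.29, edgeR adjusted p = 0.030), lost without shMETTL3 replicate 2 (0.44), shMETTL14 replicate 1 (0.78) or replicate 2 (0.81), by DESeq2 (adjusted p = 0.15), by library size alone (0.55), in a fit of the 2 groups alone (0.82) and with an offset for gene length (0.46) or GC content (0.63). Each of these had both shMETTL14 libraries above both shMETTL3 libraries. The pair at 19q13.41 ran the other way: ZNF841 was lower with shMETTL14 than with shMETTL3 by −0.51 ± 0.14 (edgeR adjusted p = 0.0046), lost without shMETTL14 replicate 1 (−0.44) or by library size after ribosomal RNA was set aside (−0.31), and ZNF432 by −0.42 ± 0.16 (edgeR adjusted p = 0.039), a call that ended without control replicate 1 (−0.41), control replicate 2 (−0.41), shControl replicate 1 (−0.41), shControl replicate 2 (−0.41), shMETTL3 replicate 2 (−0.23) or shMETTL14 replicate 1 (−0.31), by DESeq2 (−0.44), in a fit of the 2 groups alone (−0.40), with an offset for GC content (−0.25), by upper quartile scaling (−0.37) and by library size after ribosomal RNA was set aside (−0.21).

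Base composition and gene length both moved with this comparison across genes. Over the 198 tested members GC content of the counted span and the log2 difference between the knockdowns had a Spearman correlation of 0.34, and over 12807 genes tested one of 0.37, where all points come from the same 4 libraries and differ in depth and length. For gene length the correlation was −0.23 over the members and −0.33 over all 12844 genes tested, and with an offset for length in each library the members' median relative to all genes was 0.04. By GC content the member medians were 0.10 below 40%, −0.01 from 40% to 45%, 0.61 from 45% to 50% and 1.15 above 50%, the last from 16 members. Members of the short and the long arm had median GC contents of 42.4% and 43.9%, and medians in the comparison of −0.32 and 0.38. Clusters within the arms differed in GC content as well. Tested members of clusters 4 and 9 had median GC contents of 39.7% and 47.2%, with medians of −0.39 and 0.64. Those of clusters 3 and 6 had 44.2% and 40.6%, with medians of −0.58 and 0.40. With an offset for GC content in each library, chosen after seeing the data, 29 members were higher and 16 lower. These were 14.6% and 8.08% of the members tested, against 16% and 18% of all genes. The part of base composition and length in the difference between the arms was not tested further.

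**Figure D4:**
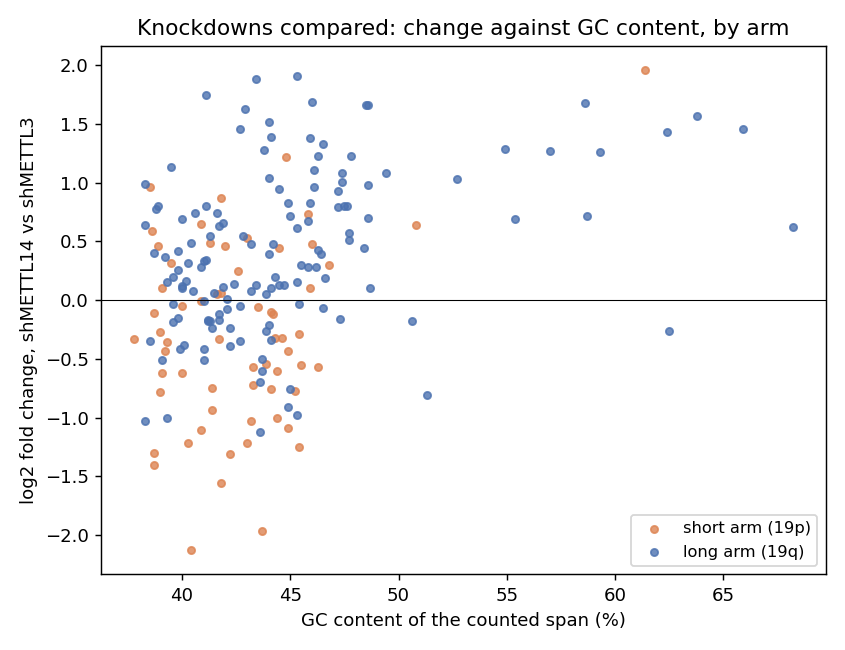
Log2 fold change of shMETTL14 against shMETTL3 for the 198 tested members by GC content of the counted span in percent, with a point for each member coloured by chromosome arm. Between 40% and 45% GC short-arm members lie mostly below 0 and long-arm members on both sides.

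Set beside other genes, the members resembled zinc finger genes elsewhere in GC content and median count (17.2 against 19.9), but 65 of those 264 genes and 28 of the 248 members reached a mean of 50 counts. The 264 ZNF genes of other chromosomes (200 tested, median GC 42.8%) had 9 higher and 22 lower in senescence with a median of −0.24, 20 higher and 1 lower with shMETTL3 (0.08), 10 and 6 in shMETTL14 cells (0.11), and 22 and 30 between the knockdowns (0.01). The 1142 other protein-coding genes of chromosome 19 (578 tested, median GC 54.4%) had 57 higher and 41 lower in senescence (−0.07), 7 and 104 in shMETTL3 cells (−0.37), 57 and 28 in shMETTL14 cells (0.17), and 188 and 16 between the knockdowns (0.54). The members' medians of −0.05 with shMETTL3 and 0.15 between the knockdowns thus lay between those of the compared sets. Their medians of −0.01 in senescence and 0.20 with shMETTL14 lay above those of both sets. No test between sets was run.

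**Figure D5:**
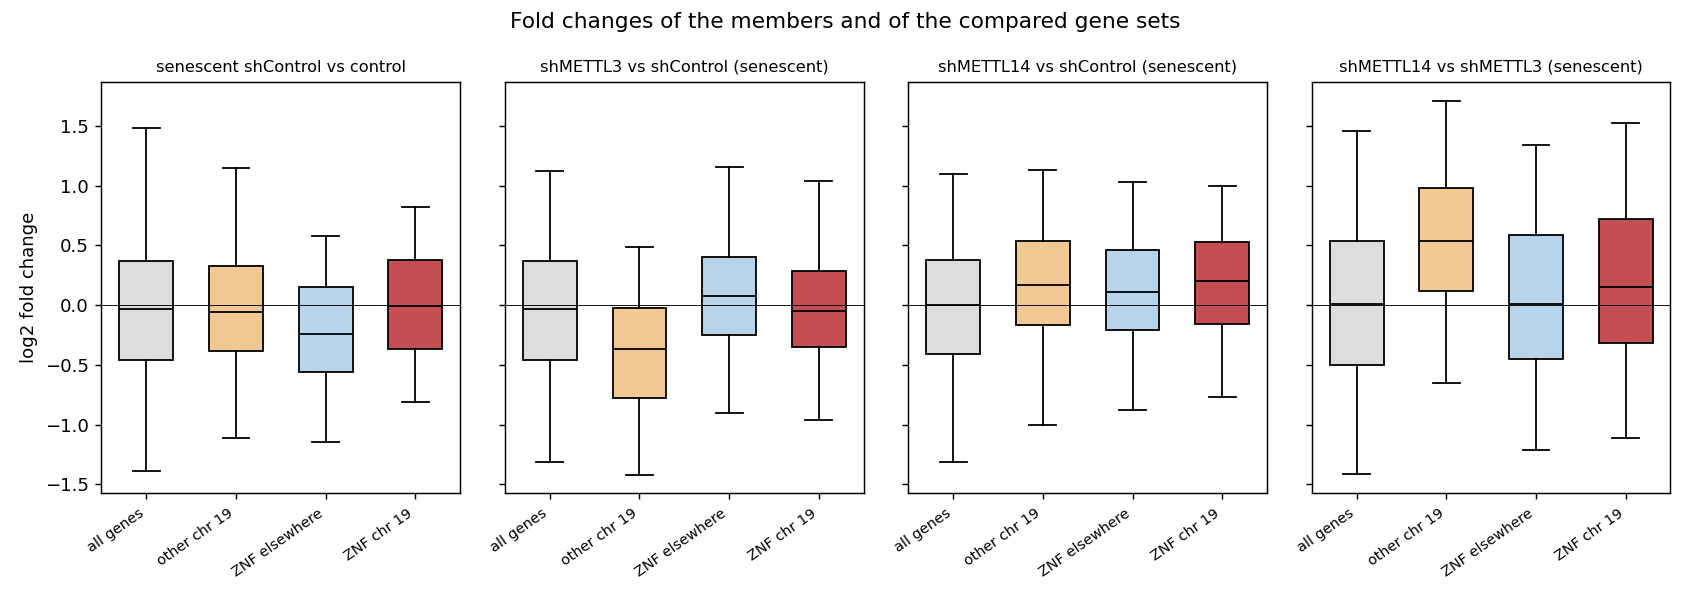
Log2 fold changes of all genes tested, other protein-coding genes of chromosome 19, ZNF genes of other chromosomes and the members in 4 comparisons, with a line at the median, a box over the central 50% and whiskers from the 5th to the 95th percentile. The members' medians stay within 0.20 of 0.

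Against control cells, senescent cells with shMETTL3 had 21 members higher and 12 lower, where 20.1% and 20.1% of all genes tested were, and senescent cells with shMETTL14 had 28 higher and 12 lower, where 19.7% and 20.5% were. In shares of the 198 tested these are 10.6% and 6.06%, and 14.1% and 6.06%, all below the background. These comparisons share the control libraries with the comparison of senescence. ZNF432 and ZNF841 were again higher in both.

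Genes of the KRAB corepressor complex and of the heterochromatin machinery around it were followed beside the members. Of the 24 genes listed 23 were tested, SUV39H1 being too low. In senescence none rose and 6 fell (0% and 26.1%, against 13.3% and 13.3% of all genes): SETDB1 (67 and 70 counts to 38 and 25, log2 −0.73 ± 0.26), CBX1, which encodes a heterochromatin protein 1, the methyltransferase gene EHMT1, CHD3, and the DNA methylation genes DNMT1 and UHRF1 (68 and 94 to 23 and 24, −1.40 ± 0.30), with edgeR adjusted p between 0.00081 and 0.041. The SETDB1 call ended by DESeq2 (−0.72), with no filter on low counts (−0.70) and without control replicate 1 (−0.74), control replicate 2 (−0.70), shControl replicate 2 (−0.41), shMETTL14 replicate 1 (−0.69) or shMETTL14 replicate 2 (−0.72). TRIM28, the corepressor that KRAB domains bind, had 192 and 171 counts in the control libraries, 129 and 134 in shControl cells, 158 and 101 in shMETTL3 cells and 170 and 168 in shMETTL14 cells and did not pass the test in the 4 comparisons. With shMETTL3 EHMT1, PPHLN1, ATRX and TRIM33 rose and CBX5 and CHD4 fell (17.4% and 8.70%, close to the 12.3% and 11.2% of all genes). With shMETTL14 MORC2 rose and CBX3, FAM208A, ATRX, HDAC1 and HDAC2 fell (4.35% and 21.7%, against 9.15% and 12%). ATRX, a chromatin remodeller at silenced repeats with the most counts of the list but only 0.115 RPKM per length against 1.37 for TRIM28, thus moved in both directions, from 483 and 479 counts in shControl cells to 777 and 933 in shMETTL3 cells (0.61 ± 0.15, edgeR adjusted p = 0.0033) and to 280 and 381 in shMETTL14 cells (−0.70 ± 0.15, edgeR adjusted p = 0.0015). The rise of ATRX lost its call with an offset for gene length (0.24) and without shControl replicate 2 (0.55), and its fall by library size alone (−0.35) and without shMETTL14 replicate 1 (−0.48). Against shMETTL3, the shMETTL14 libraries had 2 of the 23 higher and 9 lower (8.70% and 39.1%, against 16.5% and 18.7%). The summed level of the list was 219 and 222 CPM in control cells, 205 and 204 in shControl cells, 214 and 222 in shMETTL3 cells and 179 and 182 in shMETTL14 cells, lowest with shMETTL14. The members' summed CPM was 388.5 and 405.3 with shMETTL3 and 405.9 and 397.3 with shMETTL14, so these groups overlapped. No relation between the list and the members was tested.

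Most members did not pass the test. Of the 198 tested 160 were called in none of the comparisons of senescence, shMETTL3 and shMETTL14 (80.8%, against 51.8% of all genes), and 136 in none when the knockdowns were compared as well (68.7%, against 43.2%). In the first 3 comparisons 154 had log2 differences under 1 in size throughout. The depth limits what could be seen, since the smallest difference called in senescence was 0.37, in ZNF254, the member with the most counts among those that fell, and the median SE of a member was 0.39. ZNF587, among the most transcribed members per length, had 124 and 129 counts in the control libraries, 81 and 92 in shControl cells, 142 and 115 in shMETTL3 cells and 114 and 122 in shMETTL14 cells, and its log2 differences of −0.16 ± 0.19, 0.36 ± 0.19 and 0.29 ± 0.19 did not pass the test. Adjusted p-values here rest on 2 libraries a group and set each difference against the spread between these samples, with that spread estimated over all 4 groups.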

How the data were processed

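Counts over whole gene bodies were used as deposited, made with HOMER after alignment to hg19 with STAR. The treatment of reads that match several places is not given in the sources used here. The file header names a strand option, but in 299 of 299 nested pairs of genes on opposite strands the outer gene never had fewer counts than the inner, so strands were not separated in effect. Differences were tested with edgeR 4.0.16 (quasi-likelihood, TMM scaling, filterByExpr with a minimum count of 10, Benjamini-Hochberg adjusted p under 0.05) over all 8 libraries, with DESeq2 1.42.0 as the alternative, in R 4.3.3. Figures and summaries used Python 3.11.15 with pandas 2.3.3, numpy 2.4.6 and matplotlib 3.10.9. Gene spans, GC content and upstream sequence came from hg19. Members and lists were chosen with earlier results of these data known. Protein sequences and the fly spike-in were not used here.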

Additional observations from a re-analysis of the deposited data

How the results depend on the processing

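The counts of members called and their medians were recomputed under alternatives, with 105 of 260 values moved. Medians near 0 changed sign under some alternatives, and the balance of higher and lower members turned under some, as the values below show. Of 797 values for 42 results on single members 631 stayed called, 166 lost their call and none reversed, and 12 results stayed called throughout. Counts are given as higher and lower, medians as members minus all genes, in the order senescence, shMETTL3, shMETTL14 and shMETTL14 against shMETTL3, where the main values are 8 and 7, 14 and 3, 11 and 3, and 26 and 18, with medians of 0.02, −0.02, 0.20 and 0.14. DESeq2 gave 5 and 0, 5 and 0, 3 and 1, and 6 and 10. An adjusted p under 0.01 gave 5 and 1, 5 and 0, 3 and 1, and 9 and 11. At least 10 counts in every library gave 9 and 1 for shMETTL3, 5 lower for shMETTL14 and 14 higher between the knockdowns. An offset for gene length gave medians of −0.03 in senescence, 0.09 for shMETTL3 and 0.04 between the knockdowns, 0 lower for shMETTL3 (0%, against 9.83% of all genes) and 15 higher between the knockdowns (7.58%, against 14.9%). Library size alone gave 3 and 46, 58 and 0, 40 and 1, and 12 and 32. A mean of at least 50 counts gave 2 lower in senescence, 6 and 0 for shMETTL3 with a median of 0.12, 6 higher for shMETTL14 with 0.29, and 4 and 5 between the knockdowns with 0.00. No filter gave 4 lower in senescence (1.63%, against 7.56% of all genes) and medians of −0.02 and −0.06 in senescence and for shMETTL3. Only the 2 groups compared gave 15 and 11 in senescence, 8 and 0 for shMETTL3, and 19 and 5 for shMETTL14. A replicate block gave 4 lower in senescence and 1 lower for shMETTL3 and ended the calls of ZNF43 in senescence, ZNF493 with shMETTL3, and ZNF317 and ZNF814 with shMETTL14 (adjusted p = 0.051, 0.050, 0.051 and 0.053), and replicate numbers did not pair across groups (correlations from −0.0389 to 0.101). Chosen after seeing the data, an offset for GC content gave 1 lower for shMETTL3 and a median of 0.20 between the knockdowns, leaving out ribosomal RNA gave 2 lower in senescence, and library size after ribosomal RNA was set aside gave 9 higher for shMETTL3, 18 higher for shMETTL14 and 49 and 9 between the knockdowns. Upper quartile scaling gave 8 and 8, 12 and 3, 14 and 3, and 27 and 15. In shares of the members these were 4.04% and 4.04%, 6.06% and 1.52%, 7.07% and 1.52%, and 13.6% and 7.58%. Of all genes 12.2% and 15.1%, 11.6% and 11.8%, 10.1% and 11.3%, and 18.3% and 17.3% were called. Members sharing under 5% of their span gave 8 and 6, 14 and 3, 10 and 3, and 22 and 18 of 173, beside the main shares of all genes. Leaving out each library in turn gave 5 to 13 higher and 0 to 11 lower in senescence, 5 to 18 and 0 to 7 for shMETTL3, 3 to 19 and 1 to 5 for shMETTL14, and 3 to 40 and 7 to 25 between the knockdowns, with medians of 0.15 to 0.26 for shMETTL14 and 0.16 to 0.30 between the knockdowns. The shMETTL3 libraries differed most from each other (chi-square per degree of freedom 5.13). The cause of these shifts was not tested. Limits are 2 libraries a group, a single hairpin per gene, control cells without a hairpin, low counts for most members, reads shared among paralogs and overlapping genes, strands not separated, and scaling relative to other genes, so that a change of total transcription would not be seen. The median member had too few for small differences to be called. Among the 42 results followed, calls near the threshold ended when a library was left out, as given for those members. The other calls were not followed.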

Other observations

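Other zinc finger loci of chromosome 19 outside the naming rule were looked at after their values were seen. Of 14 antisense or divergent transcripts 9 were tested, of 20 zinc finger genes with other symbols 12, of 9 pseudogenes 2 and of 5 readthrough genes 5, and none passed edgeR's quasi-likelihood test in senescence. HKR1, a zinc finger gene of the 19q13.12 region, had 107 and 100 counts in shControl cells and 178 and 187 in shMETTL3 cells and rose by 0.60 ± 0.17 on the log2 scale (edgeR adjusted p = 0.011), with no overlap between the groups.

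With shMETTL14 the antisense transcript ZNF667-AS1 rose from 14 and 17 counts to 44 and 35 (1.18 ± 0.35, edgeR adjusted p = 0.015), while ZNF667 itself stayed at 28 and 24 against 19 and 28. The pseudogene ZNF542P rose from 25 and 26 to 60 and 58 (1.05 ± 0.30, edgeR adjusted p = 0.012) and the readthrough gene ZNF765-ZNF761 from 52 and 63 to 105 and 97 (0.65 ± 0.20, edgeR adjusted p = 0.022). In each case both shMETTL14 libraries were above both shControl libraries. Genes that overlap share reads, since strands were not separated in effect. ZFP36, which encodes an RNA-binding protein with another kind of zinc finger, had 18 and 6 counts in shMETTL3 cells and 47 and 39 in shMETTL14 cells (1.88 ± 0.43, edgeR adjusted p = 0.0011).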
